A study of Mus musculus with 12 samples.

Results

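Strand invasion is the step of meiotic recombination at which a broken chromosome pairs with its homologue, and the 7 genes described here encode factors that carry it out or prepare it: Dmc1, Rad51ap2, Meiob, Spata22, Hsf2bp, Brca2 and Tex15. They were taken by gene symbol from the 55450 genes of the deposited feature table, and all 7 were found. All 7 also passed the filter on low counts that left 20279 genes for testing. The libraries were single-cell RNA libraries of C57BL/6 mouse testis germ cells, 3 in each of 4 groups: wild type (WT) and Zfp541-/- knockout (KO), each collected 260 h or 360 h after retinoic acid. In all 4 groups, pups had been fed WIN 18,446, an inhibitor of retinoic acid synthesis that holds spermatogonia undifferentiated, for 7 days from 2 days post partum, and were injected with retinoic acid on day 8 so that germ cells entered meiosis in step. The 260 h testes were labelled early pachytene and the 360 h testes late pachytene. Neither the animals per library nor the deleted part of Zfp541 is stated, so the p-values measure the spread between libraries, which may be technical.

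In early meiotic prophase SPO11 breaks the chromosomes on purpose, the ends are trimmed to single-stranded DNA, and the recombinase DMC1 coats that DNA as filaments that search for the homologue. BRCA2 helps to load the recombinase, HSF2BP brings BRCA2 to meiotic breaks, TEX15 is needed for that loading, and MEIOB with SPATA22 binds the single-stranded DNA together with replication protein A. Breaks are repaired during pachytene, and the filaments leave the chromosomes as repair proceeds.

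Library and cell facts bear on several results below. Libraries held 50 to 94 kept cells and 3601518 to 27202665 gene UMIs, each UMI marking a captured cDNA molecule. The authors' 5 clusters nearly followed the groups: cluster 4 held 220 KO cells and 2 WT cells, cluster 5 held 267 of its 268 cells from WT at 360 h, and cluster 3 held 141 KO and 73 WT cells at 260 h. At 260 h, WT libraries 1 and 2 placed their early pachytene cells almost wholly in cluster 2 and WT library 3 in cluster 3. Pre-meiotic cells, which make up cluster 1, numbered 52 and 61 in WT and KO at 260 h, and 5 and 19 at 360 h. KO library 1 had none of those 19, while KO libraries 2 and 3 had 9 and 10. The 7 spermatocyte markers summed to 4445 to 7260 CPM (gene UMIs per 1000000 of the TMM-scaled library) over the 12 libraries, and no marker of the other cell types was at 0 in every library. At 360 h the spermatid markers summed to 202 CPM in WT library 3. They summed to 7.88 and 8.87 CPM in WT libraries 1 and 2 and 3.40 to 6.97 CPM in KO. Leydig cell markers at 260 h summed to 97.2, 58.7 and 20.7 CPM in WT libraries 1 to 3. In KO they summed to 14.9 to 21.6 CPM. What part these had in the results was not tested. The 3′ counts of Zfp541 gave no called genotype difference at 260 h (log2 difference 0.24 ± 0.34 SE) or 360 h (-0.32 ± 0.34 SE). At 360 h the KO libraries, at 156, 130 and 151 CPM, lay below the WT libraries, at 200, 178 and 170 CPM. These counts check no label, since the deleted part is unknown.

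The genes lie on 6 chromosomes of the mm10 build. Dmc1 (ENSMUSG00000022429.11) spans chr15:79561497-79605109 on the minus strand, and Rad51ap2 (ENSMUSG00000086022.1) spans chr12:11456079-11462928 on the plus strand. Meiob (ENSMUSG00000024155.8) is at chr17:24804289-24839788 on the plus strand, and Spata22 (ENSMUSG00000112920.1) at chr11:73329741-73346044 on the plus strand. Hsf2bp (ENSMUSG00000002076.12) is at chr17:31944769-32036349 on the minus strand. Brca2 (ENSMUSG00000041147.10) is at chr5:150522630-150570329 on the plus strand, and Tex15 (ENSMUSG00000009628.14) at chr8:33516738-33585582 on the plus strand. A same-strand gene listed at 0 UMIs, Gm49340, covers 80.5% of the exonic bases of Spata22, so the Spata22 count of 145 UMIs in all kept cells is uncertain. Exons of Hsf2bp and Brca2 overlap opposite-strand genes over 1.50% and 0.301% of their bases, and whether reads were counted by strand is not given.

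RefSeq promoter windows (GRCm38.p6) were matched for 5 of the 7 genes: Dmc1, Rad51ap2, Spata22, Hsf2bp and Brca2. The 250 bases before the RefSeq start are shown for the 2 matched genes that fell with time in both genotypes, Dmc1 and Rad51ap2, and for the 2 matched loader genes that did not fall, Hsf2bp and Brca2. Each reads 5′ to 3′ on the gene's strand, with capitals at matches to the motifs searched. The windows are chr15:79605110-79605359 (minus), chr12:11455805-11456054 (plus), chr17:32034509-32034758 (minus) and chr5:150522371-150522620 (plus). The RefSeq start of Hsf2bp lies inside the gene span given above, so its window does too.
Dmc1: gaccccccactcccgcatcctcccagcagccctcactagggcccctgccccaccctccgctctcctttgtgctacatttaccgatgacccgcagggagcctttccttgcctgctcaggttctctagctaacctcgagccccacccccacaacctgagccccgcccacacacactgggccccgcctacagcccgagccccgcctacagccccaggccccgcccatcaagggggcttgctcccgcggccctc
Rad51ap2: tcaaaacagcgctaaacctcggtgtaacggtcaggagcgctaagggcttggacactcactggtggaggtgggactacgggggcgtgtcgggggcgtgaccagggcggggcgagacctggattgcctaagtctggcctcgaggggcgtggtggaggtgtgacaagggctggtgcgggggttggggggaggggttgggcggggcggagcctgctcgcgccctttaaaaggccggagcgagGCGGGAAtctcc
Hsf2bp: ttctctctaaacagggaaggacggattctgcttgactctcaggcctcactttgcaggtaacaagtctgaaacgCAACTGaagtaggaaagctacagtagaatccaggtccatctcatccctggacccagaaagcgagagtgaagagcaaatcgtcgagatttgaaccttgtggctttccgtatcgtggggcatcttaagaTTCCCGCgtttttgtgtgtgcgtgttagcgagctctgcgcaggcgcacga
Brca2: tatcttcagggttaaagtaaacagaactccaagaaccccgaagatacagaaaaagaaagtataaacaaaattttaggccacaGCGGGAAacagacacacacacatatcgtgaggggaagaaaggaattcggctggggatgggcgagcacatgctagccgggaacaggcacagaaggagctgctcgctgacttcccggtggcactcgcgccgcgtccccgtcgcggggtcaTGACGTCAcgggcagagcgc

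The letters searched on both strands were CACGTG (E-box), CCTCAG (core of the reported STRA8 motif), CAACTG (MYB type), TGACGTCA (CRE), GCGCATGC (part of the NRF1 motif) and TTCCCGC (E2F type). No 2 of the matches overlapped. The E2F-type letters stood once each in the windows of Rad51ap2, Hsf2bp and Brca2, against 3.82% of all 32851 promoter windows of that length. Brca2 also held the CRE letters, found in 1.55% of all windows, and Hsf2bp the MYB-type letters, found in 11.1%. The Dmc1 and Spata22 windows held none of the 6. Base composition varied: G and C made up 68.8% of the Dmc1 window, 66.8% of that of Rad51ap2, 63.2% for Spata22, 54.4% for Brca2 and 50.4% for Hsf2bp, with a median of 52.4% over all windows.

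With time, Dmc1 and Rad51ap2 fell to a small part of their early level in both genotypes, while Hsf2bp and Brca2 were not called. In WT, 4 of the 7 genes were lower at 360 h than at 260 h (Dmc1, Rad51ap2, Meiob and Tex15) and 0 were higher, where 39.9% of all genes tested were called and 18.9% were called lower. In KO, 3 of the 7 were lower at 360 h (Dmc1, Rad51ap2 and Meiob), where 23.5% of all genes were called and 10.2% were called lower. Between the genotypes at 360 h, 3 of the 7 were higher in KO (Dmc1, Meiob and Tex15), where 22.5% of genes were called and 8.93% called higher. The median log2 difference of the 7 was 1.08 at 360 h, against 0.03 over all genes tested. That median is the value of Spata22, which was not called and had few counts. At 260 h, edgeR called 0 of the 7 between the genotypes, DESeq2 and limma-voom also called 0, and 1 gene, Tex15, had an unadjusted p under 0.05, where 1.89% of all genes were called. The comparisons share libraries: WT at 360 h enters both the genotype comparison at 360 h and the time comparison in WT.

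**Figure D1:**
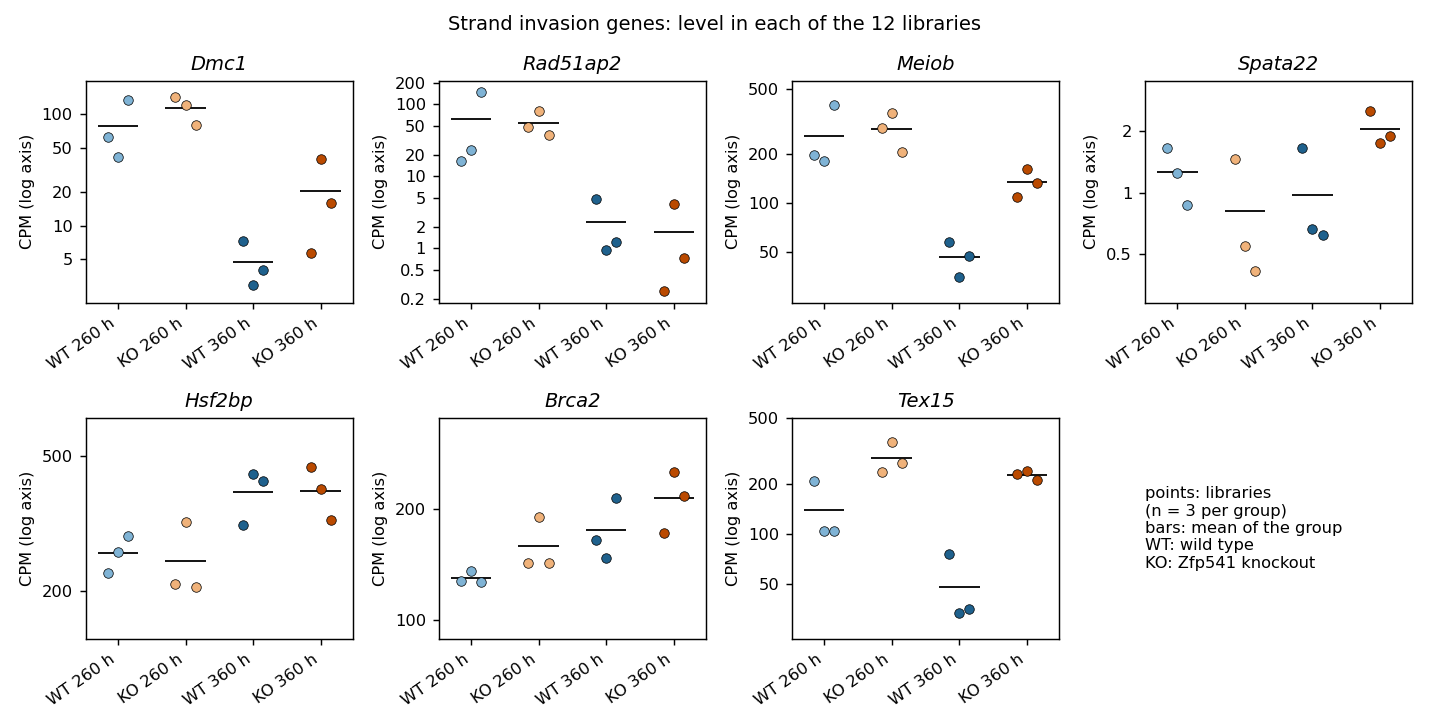
CPM of each of the 7 genes in each of the 12 libraries on log axes, with points for libraries and bars for group means (n = 3). Tex15 in KO at 360 h, 211 to 240 CPM, lies above all WT libraries of that time, 33.5 to 76.4 CPM.

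Dmc1, the meiotic recombinase, fell steeply with time in both genotypes. Its level in WT at 260 h was 62.2, 41.6 and 133 CPM in libraries 1 to 3, and in KO 142, 122 and 80.5 CPM. At 360 h it was 7.24, 2.92 and 4.03 CPM in WT and 5.67, 39.5 and 15.96 CPM in KO. All libraries of 360 h lay below all of 260 h in either genotype, as did those of 24.2% of all genes tested in WT and 23.1% in KO. Within each time the genotypes overlapped, and KO library 1 at 360 h lay within the WT range while KO libraries 2 and 3 lay above it. Group means were 79.1 ± 48.2 and 115 ± 31.4 CPM at 260 h and 4.73 ± 2.24 and 20.4 ± 17.3 CPM at 360 h, in WT and KO (SD, n = 3). Dmc1 fell with time by 4.07 ± 0.67 (SE) on the log2 scale in WT (adjusted p = 0.00041) and the log2 difference in KO was -2.495 ± 0.61 SE (adjusted p = 0.011). At 360 h it was 4.32-fold higher in KO (log2 difference 2.11 ± 0.62 SE, adjusted p = 0.026), and at 260 h the log2 difference was 0.54 ± 0.58 SE (adjusted p = 0.79).

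In KO library 2 and WT library 3, a few cells held much of the late Dmc1 signal. In KO library 2 at 360 h, 5 cells of cluster 2 carried 198 of its 385 Dmc1 UMIs (51.4%), with 21 to 73 UMIs each, while 66 cells of cluster 4 carried 144 with at most 8 each. These 5 cells were also high in Tex15 (1702), Hsf2bp (803), Brca2 (592) and Meiob (550), in cluster CPM, the gene's UMIs per 1000000 gene UMIs of the cells summed. Their Rad51ap2 level was 76.1 cluster CPM, against 178 in cluster 3 of WT library 3 and a mean of 85.6 in cluster 3 of KO. Spata22 stood at 6.92 cluster CPM in them, from 2 UMIs. In WT library 3 at 360 h, a lone pre-meiotic cell held 46 of 91 Dmc1 UMIs. Late pachytene cells of 360 h held all Dmc1 UMIs of KO library 1 and 58.5% in KO library 3. In WT libraries 1 and 2 they held 98.7% and 83.9%. Among late pachytene cells only, the log2 difference between genotypes was 1.67 ± 0.62 SE, which did not pass (adjusted p = 0.067), where 34.9% of genes were called. In the fit on all kept cells, the log2 difference without KO library 2 was 1.13 (adjusted p = 0.19). In that fit the adjusted p was 0.052 without KO library 3, and 0.10 and 0.11 without WT library 2 or 3. The call was lost in 8 of 22 settings, also with limma-voom (adjusted p = 0.078), spike-in sizes (0.13) and the replicate block. The fall in KO was lost without KO library 3 at 360 h (adjusted p = 0.061) and with spike-in sizes (0.054). Cluster 4 of KO held 5.21 to 17.3 Dmc1 cluster CPM over its 3 libraries and cluster 5 of WT 1.66 to 6.06, ranges that overlap. At 260 h, cells of the pre-meiotic class held 54.4 ± 24.6 (WT) and 76.4 ± 14.7 (KO) Dmc1 cluster CPM (SD, n = 3). Of these cells, 51 of 52 in WT and 59 of 61 in KO had a Dmc1 UMI. Cluster 2 held 95.9 and 46.1 in WT libraries 1 and 2. Cluster 3 held 152 in WT library 3 and 152 ± 24.8 in KO (SD, n = 3). The summed level of the 8 spermatogonial markers at 360 h was 211, 632 and 649 CPM in KO libraries 1 to 3 and 69.9 to 224 CPM in WT. Most of that sum was Uchl1 and Stra8. Uchl1 was at 163, 246 and 290 CPM in KO and 101, 56.8 and 27.3 CPM in WT. Stra8 was at 6.18, 232 and 210 CPM in KO and 71.3, 52.8 and 23.8 CPM in WT. By group mean only Gfra1 was lower in KO (1.96 CPM, against 3.44 CPM in WT). That of the 7 Sertoli cell markers was 63.9, 215 and 191 CPM in KO and 40.8 to 89.9 CPM in WT. Most of the Sertoli sum was 1 gene, Clu, at 44.5, 155 and 126 CPM in KO and 59.8, 56.5 and 31.9 CPM in WT. The part of the cells with these markers in the result was not tested beyond the fit on late pachytene cells.

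Rad51ap2 had the lowest fitted log2 differences over time of the 7 genes and no called genotype difference. It stood at 16.6, 23.5 and 151 CPM in WT and 48.0, 82.2 and 37.9 CPM in KO at 260 h. At 360 h it stood at 4.86, 0.94 and 1.24 CPM in WT and 0.25, 4.10 and 0.73 CPM in KO, or 2 to 53 UMIs a library. Again every 360 h library was below every 260 h library, and the genotypes overlapped at both times. The fall was 4.79 ± 1.08 (SE) on the log2 scale in WT (adjusted p = 0.0044) and 5.02 ± 1.11 in KO (adjusted p = 0.0073). With 1 library left out, the log2 difference stayed called and ran from -5.82 to -3.13 in WT, the latter without WT library 3 at 260 h, and from -6.74 (without KO library 2 at 360 h) to -4.54 in KO. Between the genotypes the log2 difference was -0.19 ± 0.91 SE at 260 h (adjusted p = 0.97) and -0.43 ± 1.04 SE at 360 h (adjusted p = 0.80), with errors too wide to speak of equal levels. The fall in KO was lost with no filter on low counts (adjusted p = 0.069). WT library 3 at 260 h stood far above libraries 1 and 2. That library had a median of 148365 gene UMIs per cell, against 70466 and 64040 in libraries 1 and 2, and its early pachytene cells were in cluster 3. Its 17 pre-meiotic cells held 133 Rad51ap2 UMIs, against 3 in 24 such cells of library 1 and 2 in 11 of library 2. Thinned to 40000 UMIs a cell, a median WT cell of 260 h had 7 Rad51ap2 UMIs in cluster 3 and 1 in cluster 2. Cluster 3 held 178 Rad51ap2 cluster CPM in WT library 3 and 85.6 ± 22.8 (SD, n = 3) in KO. Cluster 2 held 37.6 and 25.4 in WT libraries 1 and 2. In clusters 4 and 5 the level was 0.93 ± 0.97 and 1.86 ± 1.83 cluster CPM (SD, n = 3).

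Meiob, whose product holds single-stranded DNA at breaks, fell in both genotypes and was higher in KO than in WT at 360 h. In WT it measured 195, 180 and 398 CPM at 260 h and 56.8, 34.7 and 46.8 CPM at 360 h. In KO it measured 286, 357 and 203 CPM at 260 h and 108, 162 and 133 CPM at 360 h. Genotypes overlapped at 260 h, where means were 258 ± 122 and 282 ± 76.7 CPM, and did not at 360 h, where they were 46.1 ± 11.1 and 134 ± 27.1 CPM (SD, n = 3). Of all genes tested, 19.6% also had all KO libraries above all WT libraries at 360 h. The fall with time was 2.48 ± 0.35 (SE) on the log2 scale in WT (adjusted p = 7.7e-05) and 1.07 ± 0.33 in KO (adjusted p = 0.029). At 360 h Meiob was 2.90-fold higher in KO (log2 difference 1.54 ± 0.34 SE, adjusted p = 0.0039), and at 260 h the log2 difference was 0.13 ± 0.33 SE (adjusted p = 0.93). Late pachytene cells alone gave 1.69 ± 0.25 SE (adjusted p = 0.0011). By cluster, Meiob averaged 126 ± 70.7 (WT) and 70.5 ± 28.4 (KO) cluster CPM in pre-meiotic cells of 260 h, 304 ± 118 in cluster 2 of WT (n = 2), 462 in cluster 3 of WT library 3 and 425 ± 49.2 in cluster 3 of KO, against 134 ± 32.0 in cluster 4 and 37.1 ± 11.5 in cluster 5. Thinned to 40000 UMIs a cell, a median cluster 4 cell of KO had 5 Meiob UMIs and a median cluster 5 cell of WT had 1. The call at 360 h was lost with library sizes from spike-ins (log2 difference 1.00, adjusted p = 0.21). The fall in KO was lost in 8 of 21 alternative settings: spike-in sizes (adjusted p = 0.35), no filter (0.065), and leaving out library 2 of WT (0.053), library 1 of KO (0.11) or library 2 of KO (-0.77, adjusted p = 0.18) at 260 h, or library 1 of WT (0.055), library 1 of KO (0.10) or library 3 of KO (0.12) at 360 h.

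Spata22, the binding partner of MEIOB, gave too few counts for a firm statement. Its libraries held 2 to 21 UMIs, or 1.66, 1.24 and 0.87 CPM in WT and 1.47, 0.55 and 0.41 CPM in KO at 260 h. At 360 h the level was 1.65, 0.66 and 0.62 CPM in WT and 2.52, 1.74 and 1.90 CPM in KO. All 3 KO libraries were above all 3 WT libraries at 360 h, which 19.6% of all genes tested also showed, and the log2 difference of 1.08 ± 0.75 SE did not pass (adjusted p = 0.33). To which gene reads in the exons shared with Gm49340 belong cannot be told apart in these counts.

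Hsf2bp, whose product carries BRCA2 to meiotic breaks, showed no called genotype difference. At 260 h it was 225, 261 and 290 CPM in WT and 209, 318 and 205 CPM in KO. At 360 h it was 311, 441 and 422 CPM in WT and 462, 398 and 322 CPM in KO. The genotype differences were -0.08 ± 0.25 and 0.01 ± 0.25 (log2 ± SE) at 260 h and 360 h (adjusted p = 0.94 and 0.99). All 360 h libraries lay above all 260 h libraries of their genotype, which 26.4% of genes showed in WT and 22.9% in KO, and the time differences of 0.60 ± 0.26 and 0.69 ± 0.26 did not pass (adjusted p = 0.073 and 0.062). The rise was called in 3 of 22 alternative settings in WT and 7 of 21 in KO. In both it was called with DESeq2 (adjusted p = 0.026 and 0.027) and DESeq2 size factors (0.036 and 0.044), and in WT without KO library 1 at 360 h (0.038). In KO it was also called with limma-voom (0.044), only the libraries compared (0.047), thinned cells (0.027), and without WT library 1 (0.048) or KO library 2 (1.04, adjusted p = 0.024) at 260 h. Pre-meiotic cells of 260 h had 114 ± 13.1 (WT) and 97.6 ± 15.97 (KO) Hsf2bp cluster CPM, and the group means of clusters 2 to 5 ran from 311 to 399, the 5 KO cells of cluster 2 aside. Without pre-meiotic cells, which were more numerous at 260 h, the time differences were 0.20 (adjusted p = 0.54) in WT and 0.31 (adjusted p = 0.40) in KO.

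Brca2, the mediator that helps to load the recombinase, had no called difference. It was 128, 135 and 127 CPM in WT and 142, 190 and 143 CPM in KO at 260 h, and 165, 148 and 213 CPM in WT and 172, 252 and 217 CPM in KO at 360 h. The KO libraries lay above the WT libraries at 260 h, as 7.25% of all genes did, and overlapped with them at 360 h. The genotype differences of 0.29 ± 0.24 and 0.28 ± 0.24 (log2 ± SE) at 260 h and 360 h did not pass (adjusted p = 0.71 and 0.43), nor did the time differences of 0.43 ± 0.24 in WT and in KO (adjusted p = 0.17 and 0.21). Spike-in library sizes turned both genotype differences below 0 (-0.017 and -0.30). By cluster, Brca2 group means ran from 119 cluster CPM in cluster 3 of WT library 3 to 260 ± 7.97 (SD, n = 2) in pre-meiotic cells of KO at 360 h, again without the 5 cells named above.

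Tex15, required for recombinase loading, had the smallest adjusted p of the 7 between the genotypes at 360 h. In WT it measured 209, 104 and 104 CPM at 260 h and 76.4, 33.5 and 35.3 CPM at 360 h. In KO it measured 237, 358 and 267 CPM at 260 h and 231, 240 and 211 CPM at 360 h. The KO libraries were above all WT libraries at both times, as were those of 7.25% of all genes tested at 260 h and 19.6% at 360 h. In KO the times overlapped. Means were 139 ± 60.3 and 287 ± 62.6 CPM at 260 h and 48.4 ± 24.3 and 227 ± 14.9 CPM at 360 h (SD, n = 3). At 360 h Tex15 was 4.70-fold higher in KO (log2 difference 2.23 ± 0.36 SE, adjusted p = 0.00042), a call kept in all 22 alternative settings (log2 differences 1.74 to 2.70). In WT it fell with time by 1.52 ± 0.35 (SE) on the log2 scale (adjusted p = 0.0033), whereas in KO the difference was -0.34 ± 0.34 SE (adjusted p = 0.51). At 260 h the log2 difference of 1.05 ± 0.35 SE did not pass (adjusted p = 0.18).

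The estimate of the early Tex15 difference varied with the cells summed, and whether the settings differ was not tested. Pre-meiotic cells of 260 h, which had high Tex15 levels, held 390 ± 90.8 cluster CPM in WT and 473 ± 80.9 in KO (SD, n = 3), and in them the genotype difference was 0.26 ± 0.28 (log2 ± SE, adjusted p = 0.80), where 0.114% of genes were called. They supplied 82.1%, 53.4% and 44.3% of the Tex15 UMIs of WT libraries 1 to 3 and 40.4% to 54.4% in KO. In early pachytene cells the level was 71.6 ± 8.89 cluster CPM in cluster 2 of WT (n = 2), 73.4 in cluster 3 of WT library 3 and 254 ± 50.1 in cluster 3 of KO (SD, n = 3). Summed over early pachytene cells only, Tex15 was called higher in KO by 1.85 ± 0.28 (log2 ± SE, adjusted p = 0.00088), and it was the only one of the 7 called there, where 2.4% of genes were called. Cluster 3 cells alone had a single WT library, so the spread came from the KO libraries only and that WT library is assumed to vary as they do. This setting, chosen after seeing the data, gave 1.83 ± 0.41 (adjusted p = 0.025), where 1.65% of genes were called. Leaving out WT library 1, which had 24 pre-meiotic cells among 52, gave 1.39 (adjusted p = 0.0496), and leaving out WT libraries 1 and 2 gave 1.33 (adjusted p = 0.32), where 0.449% of genes were called. Thinned to 40000 UMIs, a median cell of cluster 3 had 9 Tex15 UMIs in KO and 2 in WT, and a median cell had 7 in cluster 4 of KO and 1 in cluster 5 of WT. The fall with time in WT was lost without pre-meiotic cells (-0.79, adjusted p = 0.081), without WT libraries 1 and 2 at 260 h (-1.13, adjusted p = 0.085) and with spike-in sizes (-0.97, adjusted p = 0.097). At 360 h the KO library with 0 pre-meiotic cells, library 1, measured 231 CPM of Tex15.

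**Figure D2:**
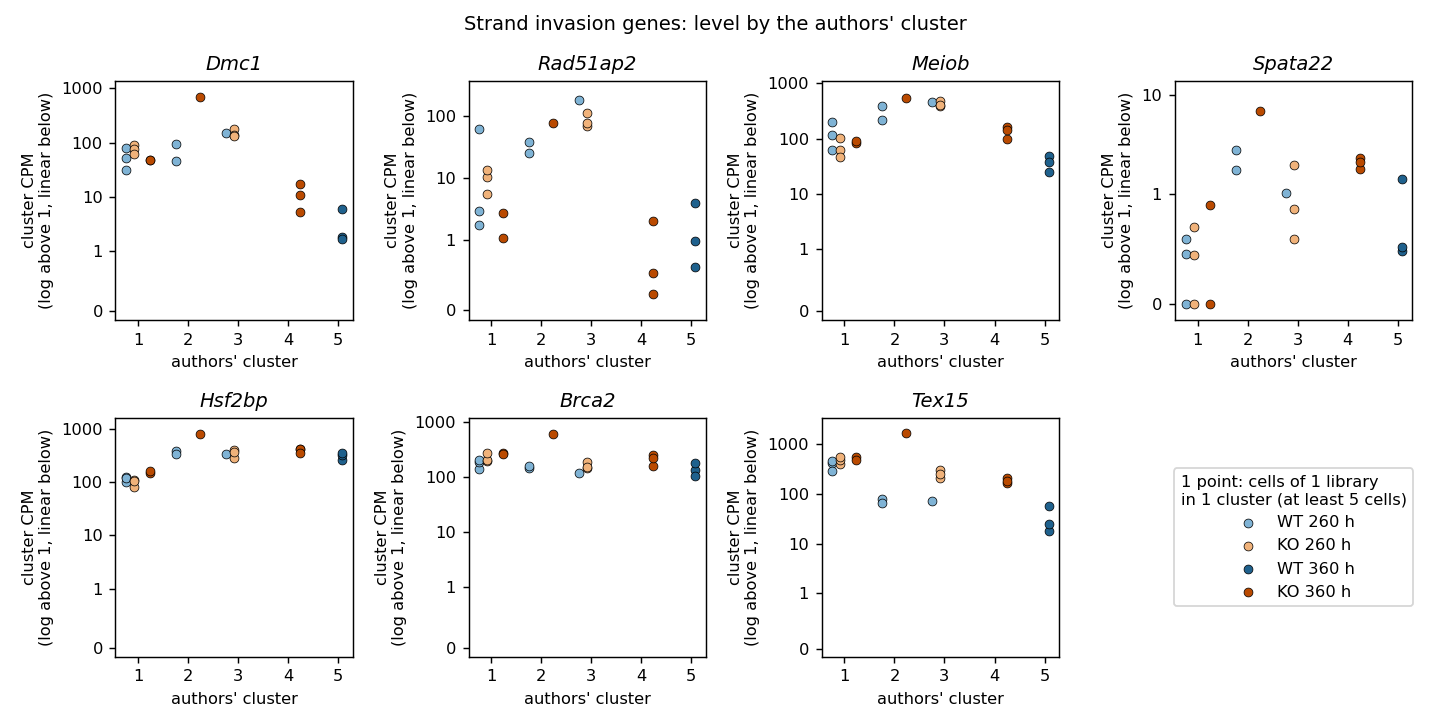
Cluster CPM of each gene in the cells of 1 library and 1 of the authors' clusters (at least 5 cells), coloured by group, on axes that are logarithmic above 1 and linear below. Tex15 is near 72 in WT clusters 2 and 3 and 204 to 304 in KO cluster 3. The isolated KO point in cluster 2 is the 5 cells of library 2.

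Whether the genotype effect itself differed between the times was tested for each gene. None of the 7 passed in edgeR, DESeq2 or limma-voom, where edgeR called 5.08% of genes, and Meiob and Tex15 had unadjusted p under 0.05. The difference of the log2 effects was 1.41 ± 0.47 SE for Meiob (adjusted p = 0.095), 1.18 ± 0.49 for Tex15 (adjusted p = 0.18) and 1.57 ± 0.84 for Dmc1 (adjusted p = 0.31). For Hsf2bp and Brca2 it was 0.09 ± 0.36 and -0.00073 ± 0.34.

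**Figure D3:**
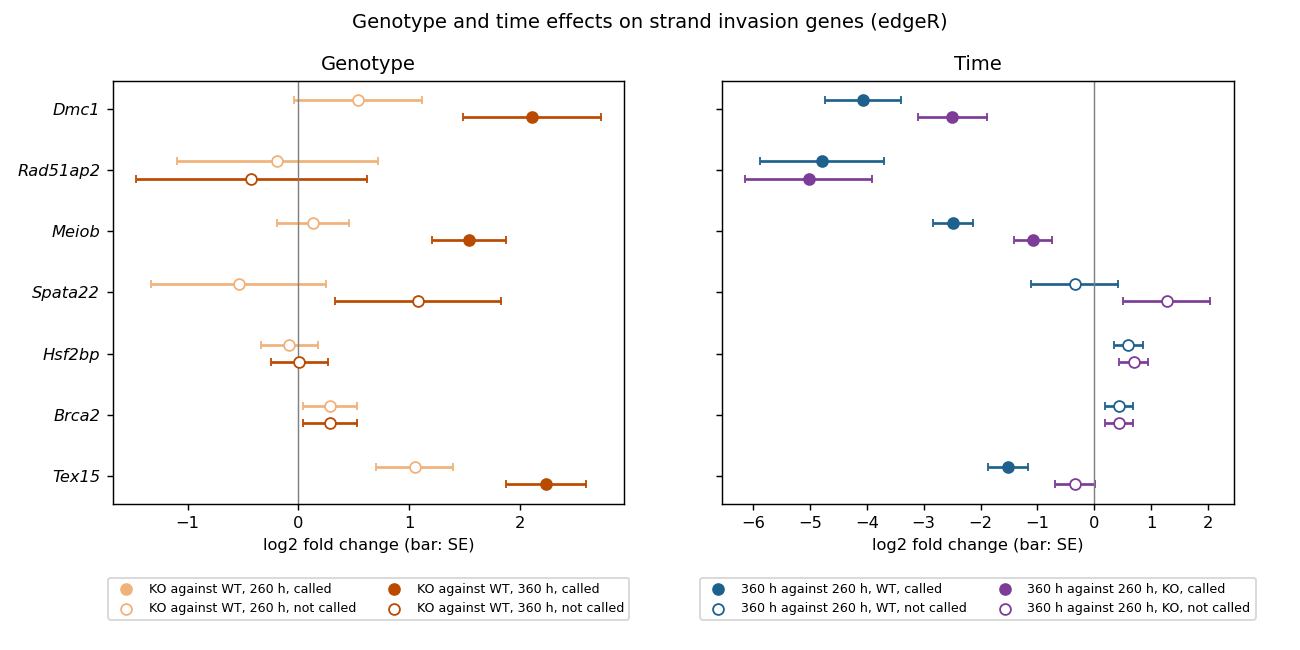
Log2 fold changes with SE from edgeR for genotype (left) and time (right), filled where the adjusted p was under 0.05. On the left the filled points are Dmc1 (2.11), Meiob (1.54) and Tex15 (2.23), all at 360 h. On the right, Rad51ap2 and Dmc1 lie farthest below 0.

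Across the 12 libraries, log2 CPM of Dmc1 went with that of Meiob (Pearson r = 0.95), Rad51ap2 (0.90) and Tex15 (0.68), and opposite to Hsf2bp (-0.76), while Hsf2bp and Brca2 had r = 0.59. The libraries share group, time and cell makeup, so these are descriptions with n = 12. Among 6859 non-member genes with a mean of at least 20 CPM, those most like Dmc1 were Homer1 (r = 0.98), Fam91a1 (0.98), Ppp2r1a (0.97), Ccna2 (0.97) and Hat1 (0.97). The nearest gene was Zyg11b for Rad51ap2 (0.98), Agps for Meiob (0.99), Itpr1 for Tex15 (0.98), Brdt for Hsf2bp (0.95), Rpl36al for Spata22 (0.90) and D3Ertd751e for Brca2 (0.84).

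Among 30 other genes of the strand invasion step, none was called between genotypes at 260 h, and at 360 h 7 were higher and 1 lower in KO. Of all genes tested, 1.89% were called at 260 h, and 8.93% were called higher and 13.5% lower at 360 h. Their median log2 difference at 360 h was 0.36, against 0.03 over all genes. Among the RecA-like genes of the list, 1 of 5 was higher: Rad51c, which was higher by 0.83 ± 0.28 (adjusted p = 0.045). Among partners and loaders, 2 of 15 were higher: Rad54b, a DNA translocase, by 2.61 ± 0.30 (adjusted p = 2.5e-05), and Palb2, which links BRCA1 to BRCA2, by 1.25 ± 0.29 (adjusted p = 0.0051). Rad54b shares 35.8% of its exonic bases with the same-strand gene Fsbp, which had 523 UMIs against 14624. Exons of Palb2 overlap the opposite-strand gene Gm16326 over 5.64% of their bases, and those of Mcmdc2 overlap Snhg6 over 2.15%. The call of Rad51c was lost in 13 of 22 alternative settings, among them leaving out any library of 360 h, library 2 of WT at 260 h, or library 1 or 2 of KO at 260 h. That of Palb2 was lost with spike-in sizes (adjusted p = 0.33).

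No genotype difference of the DMC1 cofactors passed. Psmc3ip and Mnd1, whose products form the HOP2-MND1 complex that stimulates strand exchange, gave -0.17 ± 0.34 (adjusted p = 0.76) and 0.80 ± 0.41 (adjusted p = 0.18) at 360 h. At 260 h the differences were -0.27 ± 0.34 (adjusted p = 0.83) and 1.24 ± 0.40 (adjusted p = 0.16), and the latter, of Mnd1, had an unadjusted p of 0.0070. With time they went apart: Psmc3ip rose by 1.42 ± 0.35 in WT and 1.52 ± 0.35 in KO (adjusted p = 0.0047 and 0.0060), and Mnd1 fell by 3.59 ± 0.44 and 4.03 ± 0.45 (adjusted p = 3.0e-05 and 3.1e-05). Psmc3ip exons overlap the opposite-strand gene Mlx over 21.2% of their bases.

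Of the 3 subunits of replication protein A, the general coat of single-stranded DNA, 1 was higher and 1 lower in KO at 360 h. Rpa3 was 14.3, 12.5 and 30.6 CPM in WT and 107, 109 and 127 CPM in KO (2.57 ± 0.34, adjusted p = 8.7e-05). Rpa1 was 266, 341 and 156 CPM in WT and 136, 130 and 108 CPM in KO (-1.02 ± 0.30, adjusted p = 0.021). The other subunit, Rpa2, which is named here after its value was seen, was not called (0.74 ± 0.30, adjusted p = 0.087). Of 6 limiting or unwinding enzymes, the helicase genes Blm (0.88 ± 0.22, adjusted p = 0.0088) and Brip1 (1.65 ± 0.42, adjusted p = 0.011) were higher in KO. The call of Rpa1 was lost without WT library 1 (adjusted p = 0.058), WT library 2 (0.076) or KO library 3 (0.12). Spike-in sizes lost both helicases (0.60 and 0.16), Blm was also lost with no filter (0.13) and without WT library 1 (0.062), and Brip1 without KO library 2 (0.096). Mcmdc2, an MCM-like gene needed for meiotic repair with the homologue, had the largest difference of the list: 8.89, 13.4 and 16.3 CPM in WT and 95.6, 115 and 137 CPM in KO (3.17 ± 0.33, adjusted p = 9.35e-06). The calls of Mcmdc2, Rad54b and Rpa3 at 360 h held in all 22 settings. With time, 6 of the 30 were higher and 9 lower in WT, where 20.9% and 18.9% of all genes were called higher and lower. In KO, 8 were higher and 4 lower, where 13.3% and 10.2% of all genes were.

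**Figure D4:**
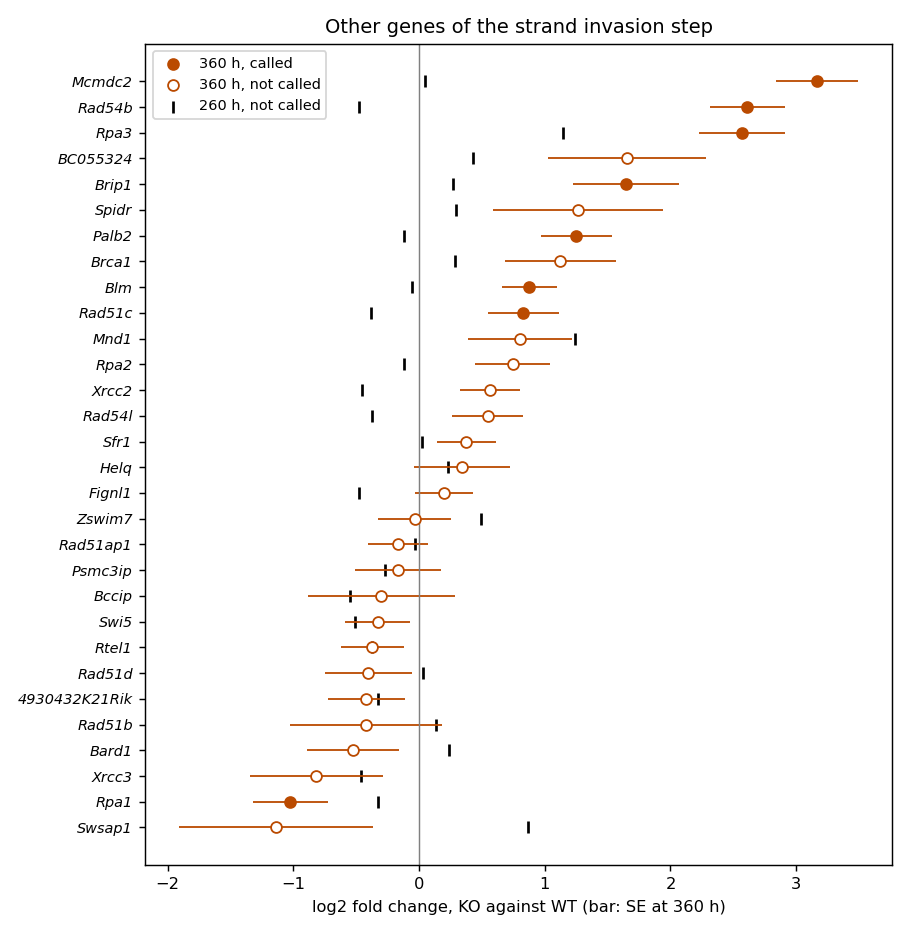
Log2 difference, KO against WT, of the 30 other genes at 360 h (circles with SE, filled where called) and at 260 h (black ticks, none called). Mcmdc2 (3.17), Rad54b (2.61) and Rpa3 (2.57) stand at the top at 360 h, and Rpa1 (-1.02) is the only filled point below 0.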

How the data were processed

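The deposited values are raw UMI counts per gene and cell barcode, with each library's table holding 55450 genes and 92 ERCC spike-in sequences. Tools listed in the submitters' processing notes are featureCounts 1.6.4, STAR 2.5.3a and UMI-tools 1.0.0, with mm10 as the build and no settings. Per the labels' protocols, cells were picked by mouth pipette and the 3′ ends of cDNA were sequenced after a modified Smart-seq2 protocol. The authors' deposited cell table gave 929 kept cells of 1152 barcodes, their 5 clusters and 3 classes. Its filters and any treatment of doublets are unstated in these sources, and doublets were not called, since cells were picked by hand. All libraries used the same 96 barcode sequences, which index plates and do not mark shared cells. Spike-ins, 6.35% of UMIs, stayed out of gene library sizes.

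Counts were summed over the kept cells of each library, filtered by filterByExpr, scaled by TMM and tested with the robust quasi-likelihood F-test of edgeR 4.0.16 in R 4.3.3, with 1 coefficient per group over 12 libraries. The threshold for a call was a two-sided p under 0.05 after Benjamini-Hochberg adjustment over 20279 genes. Adjusted p-values in the text are from this fit unless a setting is named. The script was tested on simulated data. Alternatives used DESeq2 1.42.0, limma 3.58.1 (voom), other scalings, filters, cells and libraries. Differences between clusters have no test, as the authors made the clusters from these cells. Depth was 44624 to 565099 gene UMIs per kept cell. No 2 libraries of a group were duplicates (chi-square per degree of freedom at least 9.61).

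The 7 genes and all lists were chosen with earlier results of these data known. The genes named are the 7, then those of a list of 30 strand invasion genes called in a genotype comparison, Psmc3ip and Mnd1 always, and the genes most correlated with each of the 7 (5 for Dmc1, 1 for each other). Rpa2, of the same list, is named outside this rule. The motifs were set by the same list of choices. Another gene of the list is not reported here.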

Additional observations from a re-analysis of the deposited data

Results flagged for a closer look

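For 2 genes the genotype effect differed between the times by the test of the difference itself in edgeR. The log2 effect of Rad54b was 3.09 ± 0.41 (SE) higher at 360 h than at 260 h (adjusted p = 0.00062), where it was -0.48 ± 0.28 at 260 h and 2.61 ± 0.30 at 360 h. That of Mcmdc2 was 3.12 ± 0.44 higher (adjusted p = 0.00096), from 0.04 ± 0.30 to 3.17 ± 0.33. Both were lower at 360 h than at 260 h in WT (-1.59 and -2.10) and higher in KO (1.50 and 1.02). Both differences passed in all 21 alternative settings (2.73 to 3.42 for Rad54b and 2.85 to 3.47 for Mcmdc2). The rise of Mcmdc2 in KO was lost in 6 of those settings, among them without pre-meiotic cells (0.64, adjusted p = 0.21) and with spike-in sizes (1.29, adjusted p = 0.095). It was also lost without library 1 or 3 of KO at 260 h (adjusted p = 0.065 and 0.076) and library 2 or 3 of KO at 360 h (0.054 and 0.096). The fall of Rad54b in WT was lost with spike-in sizes (adjusted p = 0.099) and without WT libraries 1 and 2 at 260 h (0.054). Groups of 3 libraries are too small for the rule on stray samples.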

How the results depend on the processing

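Adjusted p-values over 3 libraries a group, unknown animals per library and clusters that nearly follow the groups limit all genotype comparisons. Of the 7 genes at 260 h, 1 (Tex15) was called without pre-meiotic cells, in early pachytene cells only and in cluster 3 only (1 WT library), and 0 to 1 when each library was left out in turn. At 360 h, 1 of the 7 was called with spike-in library sizes and 2 to 3 with a library left out. For time in KO, 1 was called with spike-in sizes, 1 with no filter and 1 to 4 with a library left out, the fewest without KO library 3 at 360 h. For time in WT the count was 4 to 5. For the difference between times, 1 (Meiob) was called with thinned cells (1.55) and 1 (Meiob) without WT libraries 1 and 2 at 260 h (2.21), and 0 with a library left out. The alternatives on pre-meiotic cells only, cluster 3 only and without WT libraries 1 and 2 were chosen after seeing the data. In the main fit 1.89% of all genes were called at 260 h, 22.5% at 360 h and 5.08% for the difference. For time it was 39.9% in WT and 23.5% in KO. With a library left out, 115 to 577 genes were called at 260 h, 2600 to 4892 at 360 h and 482 to 1133 for the difference. For time 6233 to 8457 were called in WT and 2764 to 4992 in KO. Not every setting has its share given here.

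Spike-in library sizes moved the median log2 difference of all genes by -0.28 at 260 h, -0.52 at 360 h, 0.44 and 0.19 for time in WT and KO, and -0.22 for the difference. They lost Dmc1 and Meiob at 360 h (1.64 and 1.00) and Tex15 for time in WT (-0.97), and called 31 genes higher of 246 at 260 h (118 of 383 in the main fit), 637 of 3728 at 360 h (1811 of 4554), 4432 of 6115 for time in WT (4244 of 8082), 2084 of 2567 in KO (2693 of 4759) and 75 of 408 for the difference (467 of 1030). At 260 h the count of genes was also 953 with DESeq2, 192 with limma-voom, 687 with no filter, 181 with only the libraries compared, 600 without pre-meiotic cells, 15 in pre-meiotic cells, 122 without WT libraries 1 and 2, and as low as 115 with a library left out (WT 2) and as high as 577 (WT 1). With a library left out it fell to 2600 at 360 h (KO 3), 2764 for time in KO (KO 1 at 360 h) and 482 for the difference (KO 3). Without WT libraries 1 and 2 it was 4989 for time in WT and 636 for the difference, which had 2204 with DESeq2 and 1581 with no filter.

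Directions turned only for values called neither at the settings of the text nor under the alternative. At 260 h they were Dmc1 without WT libraries 1 and 2 (-0.32); Rad51ap2 with limma-voom (0.16), without pre-meiotic cells (0.055) and in early cells (0.047); Meiob with spike-in sizes (-0.38), in pre-meiotic cells (-0.80), in cluster 3 (-0.076) and without WT libraries 1 and 2 (-0.61). Psmc3ip turned in cluster 3 (0.42) and without WT libraries 1 and 2 (0.020), Spata22 in cluster 3 (0.22), Hsf2bp without pre-meiotic cells (0.014), in early cells (0.033) and in cluster 3 (0.096), and Brca2 with spike-in sizes (-0.017). At 360 h Psmc3ip turned in late pachytene cells (0.046), Rad51ap2 turned with thinned cells (0.36), Hsf2bp with DESeq2 factors and DESeq2 itself (-0.088 in each), limma-voom (-0.00092), no filter (-0.021) and spike-in sizes (-0.53), and Brca2 with spike-in sizes (-0.30). Spata22 over time in WT gave 0.15 with spike-in sizes and 0.13 without WT libraries 1 and 2. For the difference, Rad51ap2 gave 0.12 (spike-in), 0.56 (thinned) and 1.197 (without WT libraries 1 and 2), Hsf2bp -0.074 (spike-in), and Brca2 0.00057 (limma-voom), 0.086 (no filter), 0.15 (no pre-meiotic cells), 0.063 (thinned) and 0.15 (without WT libraries 1 and 2). With a library left out, ranges crossing 0 were -0.71 to 1.42 (Rad51ap2), -0.69 to 0.036 (Psmc3ip) and -0.16 to 0.53 (Meiob) at 260 h, -2.21 to 0.61 (Rad51ap2) and -0.19 to 0.15 (Hsf2bp) at 360 h, and -2.05 to 0.86 (Rad51ap2), -0.14 to 0.44 (Hsf2bp) and -0.24 to 0.26 (Brca2) for the difference. The cause was not tested.

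Replicate numbers did not pair the libraries: same-numbered libraries had correlations of deviations from -0.20 to 0.17, and 2 of 12 correlated best with their own number. With a replicate block, Dmc1 at 360 h had a log2 difference of 2.05 (adjusted p = 0.072). The rise of Psmc3ip with time in WT was lost without pre-meiotic cells (0.92, adjusted p = 0.060), and the falls of Mnd1 held in all settings (21 in KO and 22 in WT).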
